A study of Mus musculus with 24 samples.

Results

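The genes described here are 10 activity-induced genes measured in pancreatic islets of mice: Egr1, Egr2, Egr3 and Egr4, Nr4a1, Nr4a2 and Nr4a3, Npas4, Arc and Ier2. They were chosen by name, as the probes that carry these gene names on the array, which gave 10 of 34797 gene names and 11 of 55681 probes. Earlier results of these data were known when the genes were chosen. Islets came from male mice of 2 inbred strains, abbreviated BL6 (C57BL6/J) and BLKS (C57BLKs/J), that entered the study at 8 weeks of age. Each strain received chow with 18% of its kcal as fat, a high-fat diet (HFD) with 42%, or that high-fat diet containing 140 mg pioglitazone (Pio) per kg, a drug that activates the nuclear receptor PPAR-gamma. Each of these 6 groups held 4 mice with 1 array per mouse, 24 arrays in all. The sample labels give a feeding time of 12 weeks and the design text of the series gives 16 weeks. No group carries a transgene or a deletion made for the study, and the labels name no isolation day for the islets.

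Immediate early genes are transcribed within minutes of a stimulus, without new protein synthesis, and most of their products are themselves transcription factors. In neurons and in beta cells they are known to respond to depolarisation, calcium entry, cyclic AMP and growth factor signals, through the factors CREB and SRF. Egr1 to Egr4 encode zinc-finger proteins that bind GC-rich sites, Nr4a1 to Nr4a3 encode orphan nuclear receptors, and Npas4 encodes a helix-loop-helix factor known for its close dependence on calcium entry. Arc encodes a cytoskeleton-associated protein of synapses, and Ier2 encodes a small nuclear protein. Their transcripts are short-lived, and they are also known to be raised by the stress of tissue dissociation.

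Promoter sequence is shown first, because CREB is a known regulator of several of the members. The windows come from a single reference assembly, so they cannot show a difference between the strains. Windows of 250 bases before the RefSeq transcription start were available for 6 of the 10 genes (assembly GRCm38.p6), with several starts for Egr2. Of the 5 windows printed, each 5′ to 3′ on the strand of the gene, capitals mark every match to TGACG, on either strand, the core of the cyclic AMP response element (CRE).
Npas4 (chr19:4989972-4990221, minus strand): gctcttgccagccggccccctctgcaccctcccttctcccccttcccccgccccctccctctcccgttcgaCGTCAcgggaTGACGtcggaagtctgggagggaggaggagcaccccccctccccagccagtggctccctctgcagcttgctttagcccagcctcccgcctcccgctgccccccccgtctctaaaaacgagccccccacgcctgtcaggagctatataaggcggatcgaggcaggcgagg
Nr4a1 (chr15:101266596-101266845, plus strand): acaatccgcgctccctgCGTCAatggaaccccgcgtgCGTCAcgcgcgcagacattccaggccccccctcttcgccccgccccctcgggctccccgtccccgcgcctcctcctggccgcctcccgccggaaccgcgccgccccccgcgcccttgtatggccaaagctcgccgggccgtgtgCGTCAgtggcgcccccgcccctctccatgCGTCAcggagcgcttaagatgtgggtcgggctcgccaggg
Nr4a2 (chr2:57124004-57124253, minus strand): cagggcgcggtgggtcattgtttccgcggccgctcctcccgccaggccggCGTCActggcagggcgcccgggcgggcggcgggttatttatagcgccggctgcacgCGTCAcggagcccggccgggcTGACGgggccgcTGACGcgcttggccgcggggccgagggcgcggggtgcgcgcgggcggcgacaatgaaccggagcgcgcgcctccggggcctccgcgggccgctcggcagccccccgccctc
Egr4 (chr6:85513590-85513839, minus strand): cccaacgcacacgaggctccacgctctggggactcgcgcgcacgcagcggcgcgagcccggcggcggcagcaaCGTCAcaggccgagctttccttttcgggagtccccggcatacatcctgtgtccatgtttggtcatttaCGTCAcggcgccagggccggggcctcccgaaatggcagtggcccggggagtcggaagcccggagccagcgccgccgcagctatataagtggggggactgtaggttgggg
Egr2 (chr10:67537619-67537868, plus strand): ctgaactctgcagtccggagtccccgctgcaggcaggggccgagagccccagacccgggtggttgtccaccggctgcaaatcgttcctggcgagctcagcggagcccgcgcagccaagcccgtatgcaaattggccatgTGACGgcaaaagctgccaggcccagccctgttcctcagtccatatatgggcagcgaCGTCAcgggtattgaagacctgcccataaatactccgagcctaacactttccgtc
TGACG was present in at least 1 window of 6 of 6 genes, which had 10 windows in all. Of all 32851 windows of this length, 17.8% held it. The all-gene shares given here are per window and the member counts per gene, so they differ in unit. Nr4a1, Nr4a2 and Nr4a3 each held 4 matches, whereas 0.688% of all windows held 3 or more. In Nr4a1 they lay 233, 213, 69 and 40 bases before the start, and in Nr4a2 200, 144, 123 and 111. Npas4 and Egr4 held 2 each, at 179 and 169 and at 177 and 109 bases, and the Egr2 windows held 0 to 2. The full palindrome, in which TGACG runs on into TCA, was in 0 of the 6 (1.55% of all windows), and every full palindrome also counts as a match to TGACG. A CArG box, the SRF element, was found for 1 gene, Egr2 (1.47% of all windows), and the AP-1 site TGANTCA for 0 (6.75%), both strands being searched. These matches describe letters in a window and were not tested for binding.

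Values are log2 processed intensities relative to the 75th percentile of the same array, so a value of 0 lies at that percentile, and probes of different genes are not compared in level. The 75th percentile itself lay between 217.6 and 402.4 intensity units. Between 49.2% and 55.2% of probes were well above background on BL6 arrays, and between 52.1% and 58.3% on BLKS arrays. Markers of islet endocrine cells averaged 7.39 ± 0.20 in BL6 and 7.26 ± 0.15 in BLKS (SD, n = 12), with 11 of 11 genes of the list well above background on 24 arrays. In such bulk RNA, fewer cells of a type and less RNA per cell cannot be told apart. Of the other cell types, ductal markers (7 genes, 7 tested) ran from -3.01 to -1.42 in BL6 and from -1.05 to -0.12 in BLKS, so that the strains did not overlap. Acinar markers (12 genes) ran from -0.45 to 7.03 and from -3.12 to 7.32, lymphocyte markers (12 genes) from -3.70 to 3.00 and from -3.46 to 2.19, and macrophage markers (10 genes) from 1.06 to 2.72 and from 0.68 to 1.46.

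The test was limited to genes with a probe that at least 4 arrays read well above background, a condition that 8 of the 10 genes and 22968 genes in all met. Egr1, Nr4a1, Nr4a2, Npas4, Arc and Ier2 were well above background on 24 of 24 arrays. Egr2 was so on 18, all 12 of BLKS and 6 of BL6. Egr4 was so on 12, all of them BLKS, so it entered the test only through that strain and had to differ there. Nr4a3 was well above background on 2 arrays, 1 of the BLKS HFD group and 1 of the BLKS Pio group, and Egr3 on 0 of 24, so neither was tested.

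**Figure D1:**
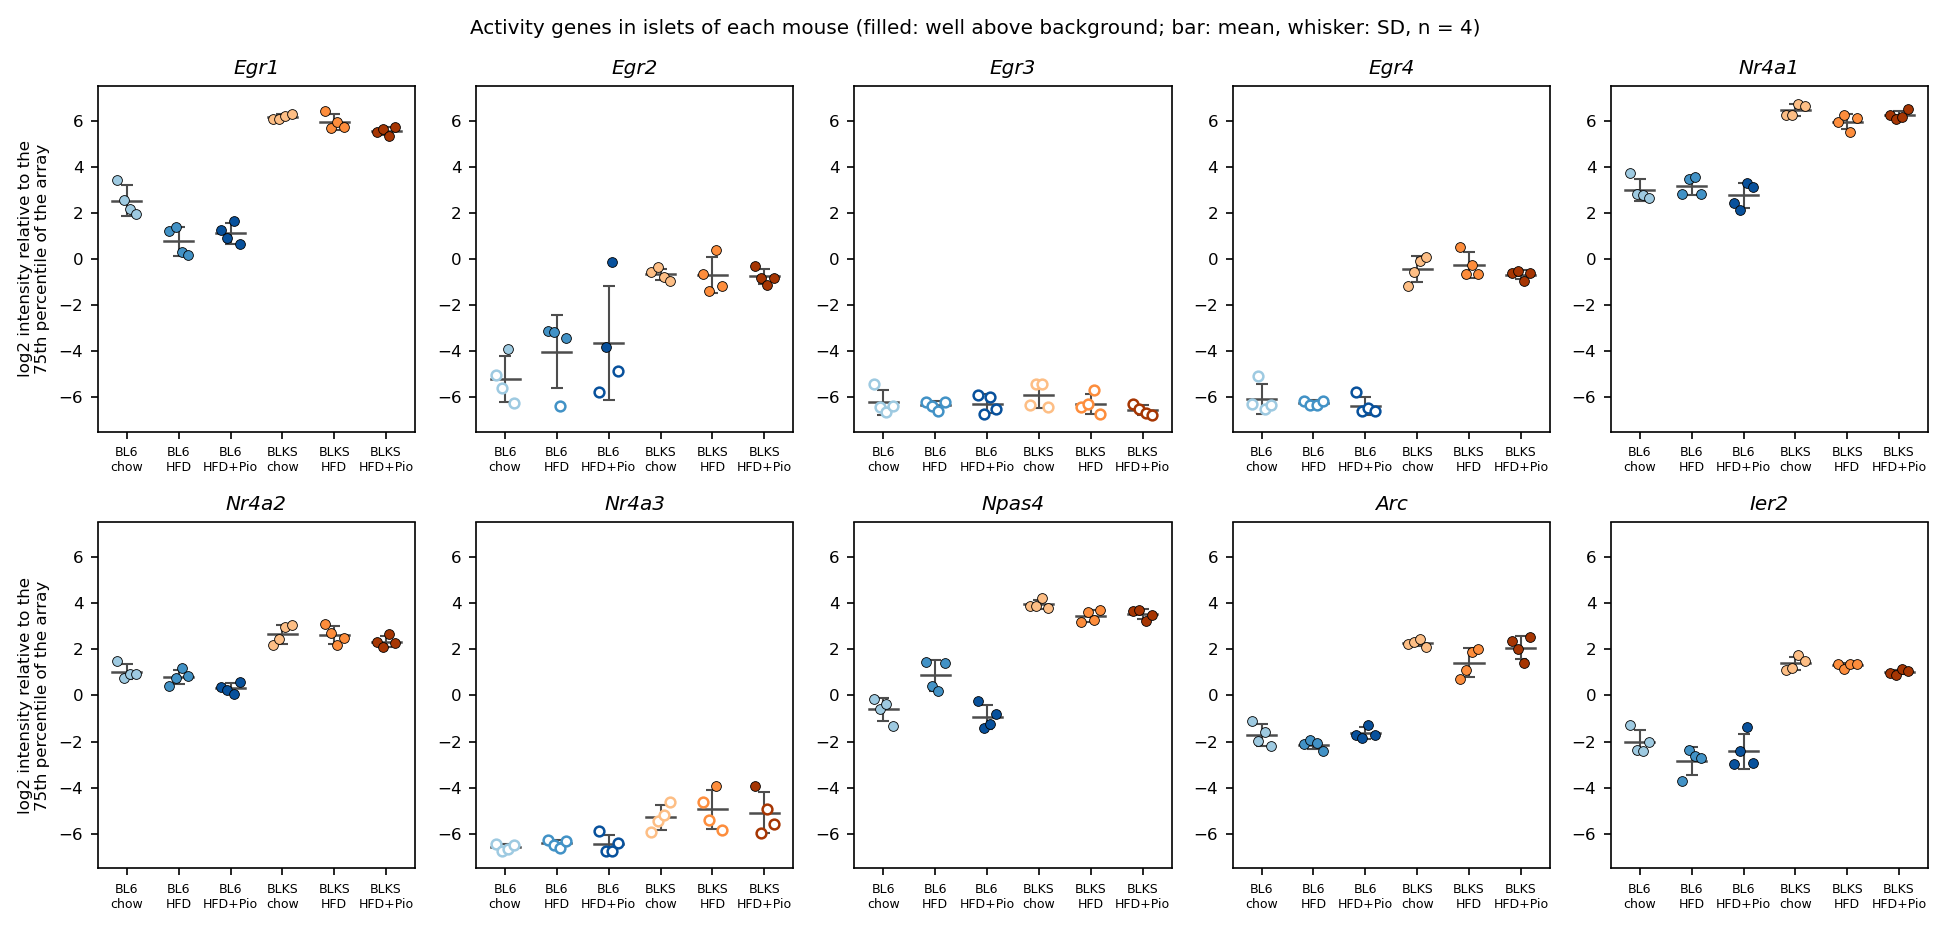
Log2 intensity relative to the 75th percentile of the array (vertical axis) for the 10 genes in each of the 24 mice, by group; filled points are well above background, bars are group means and whiskers are SD over 4 mice. The 12 BLKS points lie above the 12 BL6 points for Egr1, Egr4, Nr4a1, Nr4a2, Npas4, Arc and Ier2, whereas 1 BL6 mouse on HFD with Pio reaches the BLKS range for Egr2, and Egr3 stays below -5.4 in both strains.

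Egr1, Egr2, Nr4a1, Nr4a2, Npas4, Arc and Ier2 were higher in BLKS than in BL6 islets on every diet. Averaged over the 3 diets, Egr1 was 21.3-fold, Npas4 14.5-fold, Arc 13.5-fold, Ier2 12.7-fold, Nr4a1 9.48-fold and Nr4a2 3.57-fold higher in BLKS. Egr2, well above background on 6 of 12 BL6 arrays, was 11.9-fold higher on the processed-signal scale and 2.95-fold higher after normexp background correction. Each of these 7 genes had enough BL6 arrays above background to be tested without the BLKS arrays. The 7 passed on each diet, where 20.6% of all tested genes were called higher in BLKS on chow, 23.2% on HFD and 23% on HFD with Pio. Strain differences were common on these arrays: averaged over diets, 64.7% of genes were called, 30.1% as higher and 34.5% as lower in BLKS, and 10.8% were higher with no overlap of the 12 arrays of each strain. The median log2 difference of the 7 genes was 3.67, against -0.05 for all tested genes, whose 99th percentile was 2.83.

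Among the Egr factors, Egr1 ran from 0.15 through a median of 1.33 to 3.44 in the 12 BL6 mice and from 5.32 through 5.83 to 6.40 in the 12 BLKS mice. Every BLKS mouse lay above every BL6 mouse, and the difference was 4.41 ± 0.17 on the log2 scale (SE; adjusted p = 1e-14). It was 3.64 on chow, 5.17 on HFD and 4.43 on HFD with Pio, each ± 0.30. The groups ordered as BLKS chow (6.16), BLKS HFD (5.93), BLKS Pio (5.54), BL6 chow (2.52), BL6 Pio (1.11) and BL6 HFD (0.76). Neighbours overlapped between the BLKS groups and between BL6 Pio and BL6 HFD, and the other steps held no overlap.

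Egr4 (mm9 chromosome 6, 85461153 to 85461212, minus strand) was not well above background in any BL6 mouse, where its measured value ran from -6.62 through -6.34 to -5.09. In the 12 BLKS mice it ran from -1.19 through -0.58 to 0.53. Set against the lowest signals that the BL6 arrays detected well, Egr4 was at least 16.7-fold higher in BLKS over the 3 diets, a bound that holds for the processed-signal scale only. That bound was 16.7 on chow, 16.1 on HFD and 17.4 on HFD with Pio. The bound takes, on each BL6 array, either the lowest well-detected signal or the signal of the Egr4 probe, whichever was higher. BLKS HFD (-0.27), chow (-0.44) and Pio (-0.68) overlapped for Egr4.

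Egr2 (mm9 chromosome 10, 67004798 to 67004857, plus strand), a factor known from myelinating cells and from activated lymphocytes and macrophages, varied most among BL6 mice. It ran from -6.39 through -4.39 to -0.14 in BL6 and from -1.39 through -0.80 to 0.40 in BLKS. It was well above background in 1, 3 and 2 of the 4 BL6 mice on chow, HFD and HFD with Pio, so that the BL6 side is imprecise. The strains overlapped through a single animal, since 11 of 12 BL6 mice lay below every BLKS mouse. The difference was 3.57 ± 0.51 (SE; adjusted p = 3.4e-06), with 4.52 on chow, 3.32 on HFD and 2.88 on HFD with Pio, each ± 0.88. Group means were -0.67, -0.70 and -0.76 in BLKS on chow, HFD and Pio, and -3.64, -4.02 and -5.19 in BL6 on Pio, HFD and chow, with overlap between all neighbours. The Pio value no longer passed without BL6 Pio mouse 1 (2.17, adjusted p = 0.055) or with only the 2 groups in the fit (adjusted p = 0.069), and it was 4.05 without BL6 Pio mouse 3.

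That mouse, BL6 Pio mouse 3, had the highest Egr2 value of its strain, at -0.14, against -5.75, -3.80 and -4.87 in the other mice of its group. It also had the highest lymphocyte and macrophage marker scores of all 24 arrays, 3.00 and 2.72. BLKS HFD mouse 3, the highest for Egr2 in BLKS at 0.40, had the highest lymphocyte score of that strain, 2.19. BL6 HFD mouse 4 went the other way, with scores of 1.87 for lymphocytes and 1.95 for macrophages and Egr2 at -3.42. When the lymphocyte score entered the fit as a covariate, the Pio-diet strain difference of Egr2 was 3.35 (adjusted p = 0.00051). Without the 7 arrays whose lymphocyte score exceeded -1, Egr2 differed by 4.13 over the 3 diets (adjusted p = 9.3e-07). Macrophage RNA as a source of the Egr2 signal was not tested.

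**Figure D2:**
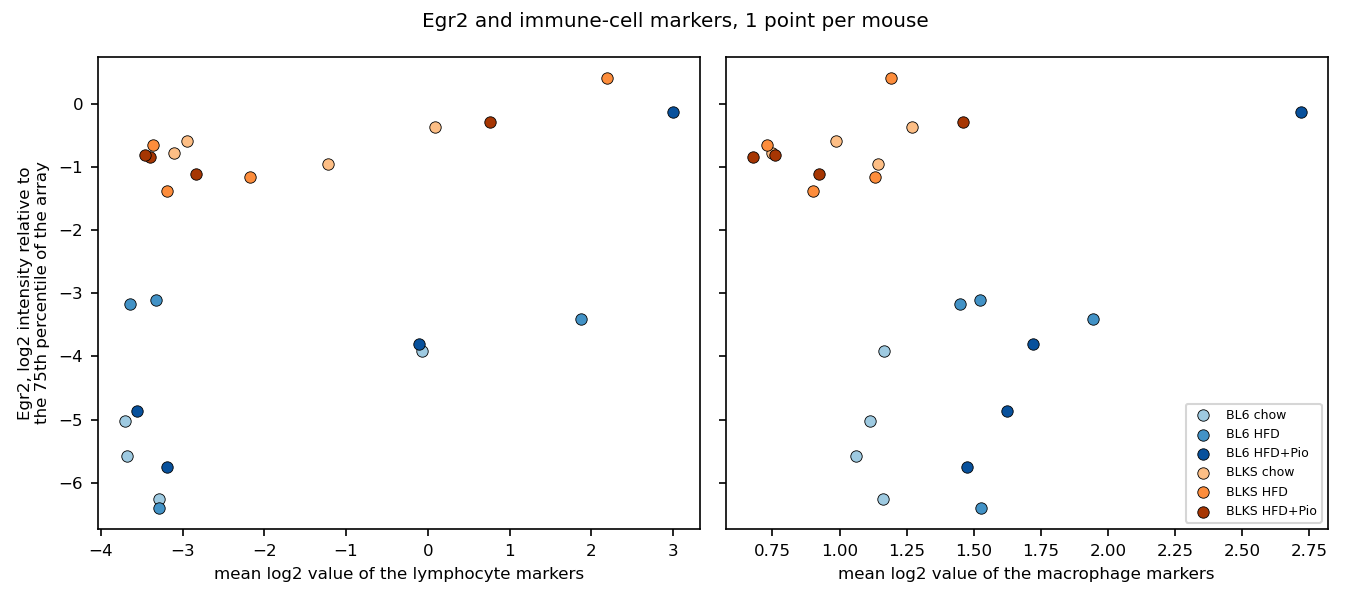
Log2 level of Egr2 (vertical axis) against the mean log2 value of 12 lymphocyte markers (left) and 10 macrophage markers (right), with 1 point per mouse coloured by group. BL6 Pio mouse 3, at -0.14 for Egr2, stands apart from the other BL6 mice and is farthest right in both plots, at 3.00 and 2.72.

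The nuclear receptor Nr4a1 (mm9 chromosome 15, 101105071 to 101105130, plus strand) ran from 2.14 through 2.82 to 3.71 in BL6 and from 5.50 through 6.23 to 6.72 in BLKS. The strains did not overlap, and the difference was 3.25 ± 0.15 (SE; adjusted p = 1.7e-13). On chow, HFD and HFD with Pio it was 3.47, 2.78 and 3.49, each ± 0.27. Within each strain every neighbouring pair of groups overlapped, in the order chow (6.46), Pio (6.24) and HFD (5.94) for BLKS and HFD (3.17), chow (2.99) and Pio (2.75) for BL6.

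Its relative Nr4a2 (mm9 chromosome 2, 56960699 to 56960758, minus strand) showed the smallest strain difference of the 8 tested genes, 1.83 ± 0.13 (SE; adjusted p = 8.1e-11). It ran from 0.05 through 0.75 to 1.50 in BL6 and from 2.11 through 2.47 to 3.11 in BLKS, again with no overlap. The other probe of Nr4a2, 56959637 to 56959696 on the same strand, differed by 1.52 ± 0.13 (adjusted p = 3.2e-09 over 32750 probes). The groups ordered as chow (2.66), HFD (2.63) and Pio (2.33) in BLKS and chow (1.02), HFD (0.79) and Pio (0.31) in BL6, with overlap between neighbours inside each strain. Nr4a2 is covered by 2 probes of like direction, whereas each other member has 1 probe.

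Nr4a3, spotted 10 times on each array, was near background throughout, from -6.77 to -5.89 in BL6 and from -5.97 to -3.91 in BLKS. In a fit with no filter it differed by 1.38 ± 0.23 (SE; adjusted p = 3.3e-05 over 34779 genes), a value that has no well-detected BL6 side. Egr3, also near background, differed by 0.03 ± 0.16 in that fit (adjusted p = 0.88).

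Npas4 (mm9 chromosome 19, 4984356 to 4984415, minus strand) ran from -1.39 through -0.30 to 1.46 in BL6 and from 3.18 through 3.69 to 4.23 in BLKS. No BLKS mouse came within the BL6 range, and the difference was 3.86 ± 0.17 (SE; adjusted p = 5e-14). It was 4.55 on chow, 2.57 on HFD and 4.46 on HFD with Pio, each ± 0.29. From the top the groups were BLKS chow (3.94), Pio (3.53) and HFD (3.44), then BL6 HFD (0.87), chow (-0.61) and Pio (-0.93). Neighbours overlapped between BLKS Pio and HFD and between BL6 chow and Pio.

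Arc (mm9 chromosome 15, 74499592 to 74499651, minus strand) ran from -2.41 through -1.89 to -1.11 in BL6 and from 0.70 through 2.07 to 2.54 in BLKS. The difference was 3.76 ± 0.16 (SE; adjusted p = 3.6e-14), with 4.00 on chow, 3.56 on HFD and 3.71 on HFD with Pio. Ier2 (mm9 chromosome 8, 87186214 to 87186273, minus strand) ran from -3.70 through -2.42 to -1.30 in BL6 and from 0.91 through 1.17 to 1.74 in BLKS. Its difference was 3.67 ± 0.18 (SE; adjusted p = 3.3e-13), with 3.42, 4.15 and 3.44 on the same diets. Arc was ordered as chow (2.27), Pio (2.08) and HFD (1.43) in BLKS and Pio (-1.64), chow (-1.72) and HFD (-2.14) in BL6, and each of these neighbours overlapped. Ier2 was ordered as chow (1.39), HFD (1.30) and Pio (1.02) in BLKS and chow (-2.03), Pio (-2.42) and HFD (-2.85) in BL6, where BLKS HFD and Pio were the only neighbours inside a strain with no overlap. For both genes the 12 mice of one strain lay apart from the 12 of the other.

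**Figure D3:**
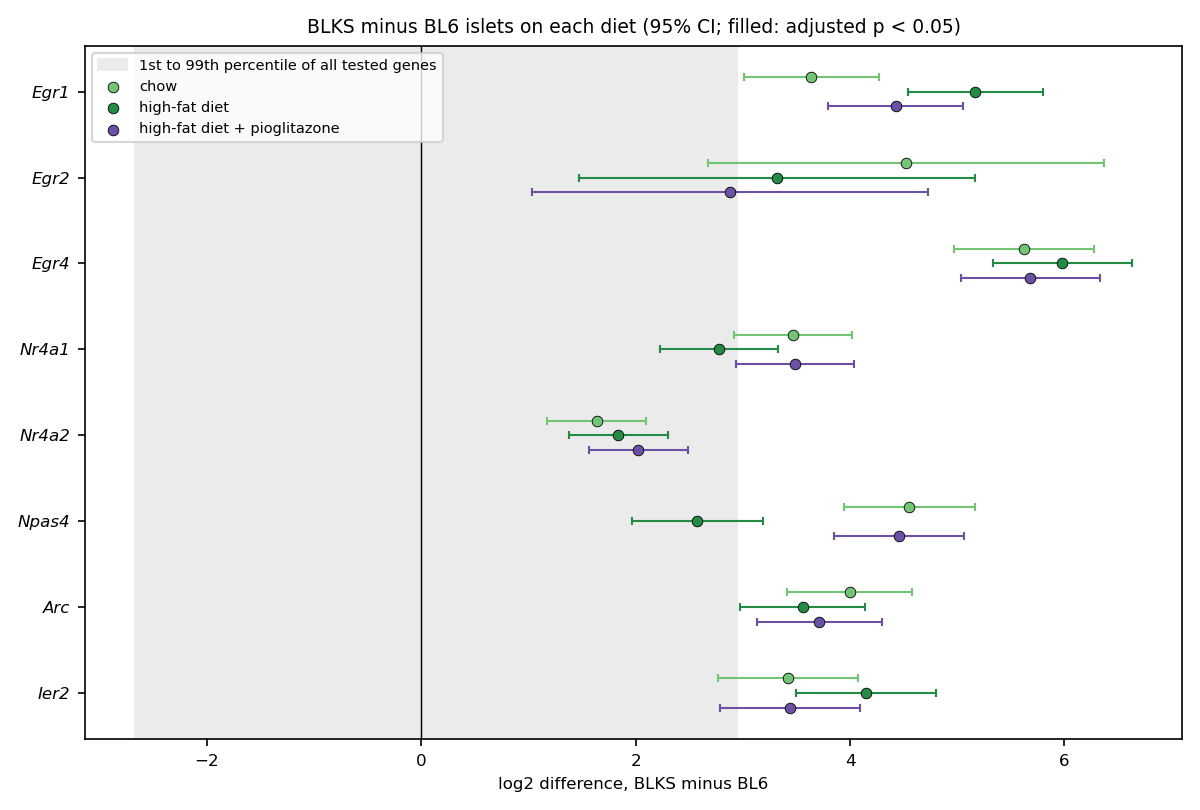
Log2 difference between BLKS and BL6 islets (horizontal axis) on each diet for the 8 tested genes, with 95% confidence intervals; filled points passed an adjusted p of 0.05 and the grey band spans the 1st to 99th percentile of all tested genes, at its widest over the 3 diets. All points lie to the right of 0, Nr4a2 at 1.64 to 2.03, Nr4a1 on HFD at 2.78 and Egr2 on HFD with Pio at 2.88 lie inside the band, and the Npas4 point on HFD (2.57) lies inside it too, left of its points on chow (4.55) and on HFD with Pio (4.46). The Egr4 points have only a bound on the BL6 side.

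Strain and array slide were largely the same split, since slide 1 held only BL6 and slide 3 only BLKS arrays. Slide 2 held 3 BLKS chow and 3 BL6 Pio arrays side by side, which differ in diet as well as strain. There, Egr1 was 4.88 ± 0.22, Npas4 4.81 ± 0.31, Arc 3.83 ± 0.18, Nr4a1 3.74 ± 0.32, Ier2 3.52 ± 0.41 and Nr4a2 2.34 ± 0.24 higher in BLKS (SE; adjusted p from 0.00034 to 0.0031, in a fit that called 22.7% of genes). Egr2 gave 2.60 ± 1.36 there and did not pass (adjusted p = 0.23). The values over the 3 diets were 4.41, 3.86, 3.76, 3.25, 3.67 and 1.83 for the 6 genes in that order and 3.57 for Egr2, from groups matched in diet, which those on slide 2 were not. The day and duration of islet isolation were not given, and handling and strain cannot be told apart. Ductal markers separated the strains too, and the share of probes above background was higher in BLKS with overlapping ranges. Their part in these differences was not tested.

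The background method set the size of the difference for dim genes. After normexp correction of the raw signals and quantile normalization, the log2 differences over the 3 diets were 1.56 for Egr2, 2.71 for Ier2 and 3.04 for Arc, each still past the threshold. On that scale the measured difference of Egr4 was 2.18, which lies below the bound given above and has no detected BL6 side.

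Related gene lists are given by their counts, beside all tested genes, of which 30.1% were higher and 34.5% lower in BLKS with a median log2 difference of -0.05. The lists, too, were chosen with earlier results of these data known. They were not limited to genes detected in BL6, so a gene kept through BLKS arrays alone, like Egr4, had to differ. Ptgs2, of the genes that respond later, averaged -6.2 in BL6 and -1.6 in BLKS. Of 22 AP-1 and other immediate early genes, 21 were higher in BLKS over the 3 diets and 0 lower, with a median log2 difference of 3.13. Fosb and Jund, subunits of AP-1, were 6.02 ± 0.13 and 3.23 ± 0.06 higher, Ier3 3.58 ± 0.09 and the nuclear factor Csrnp1 4.86 ± 0.13. Klf2 was the 1 member of that list that did not pass, at -0.16. Of 16 genes known to respond later to activity, 11 were higher and 2 lower, with a median of 1.56. Among them were the granin-family secretory protein Vgf at 3.18 ± 0.12, the transcription repressor Nfil3 at 2.58 ± 0.08, the cell cycle inhibitor Cdkn1a at 2.26 ± 0.10 and Rasd2 at 2.51 ± 0.13.

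Genes of the CREB and ERK routes were called in both directions, and these lists also hold induced genes such as Sik1. Of 20 genes for CREB, its CRTC coactivators and calcium signals, 11 were higher and 5 lower, with a median of 0.22, against the same shares of all genes, 30.1% and 34.5%. Sik1, a CREB-induced kinase, was 3.87 ± 0.24 higher, Sik2 1.07 ± 0.09 and Crtc3 0.77 ± 0.06, whereas the kinase Camkk2 was 1.77 lower (log2 difference -1.77 ± 0.07). Creb1 itself differed by -0.17 without passing (adjusted p = 0.075). Of 20 genes of the ERK, ELK and SRF route, 9 were higher and 3 lower, with a median of 0.15. Those 9 included Srf at 3.20 ± 0.04, the ERK phosphatases Dusp4 at 3.48 ± 0.13 and Dusp5 at 2.34 ± 0.08, and the kinase Rps6ka3 at 1.21 ± 0.05. The kinase Mapk3, at -0.04, did not pass. Of 10 corepressors and partners of the Egr, Nr4a and Npas4 proteins, 5 were higher and 2 lower, with a median of 0.34. The Egr corepressors Nab2 and Nab1 were 1.39 ± 0.08 and 1.12 ± 0.07 higher, Arnt 0.53 ± 0.06 higher, and the coactivator Crebbp differed by -0.66 ± 0.05.

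**Figure D4:**
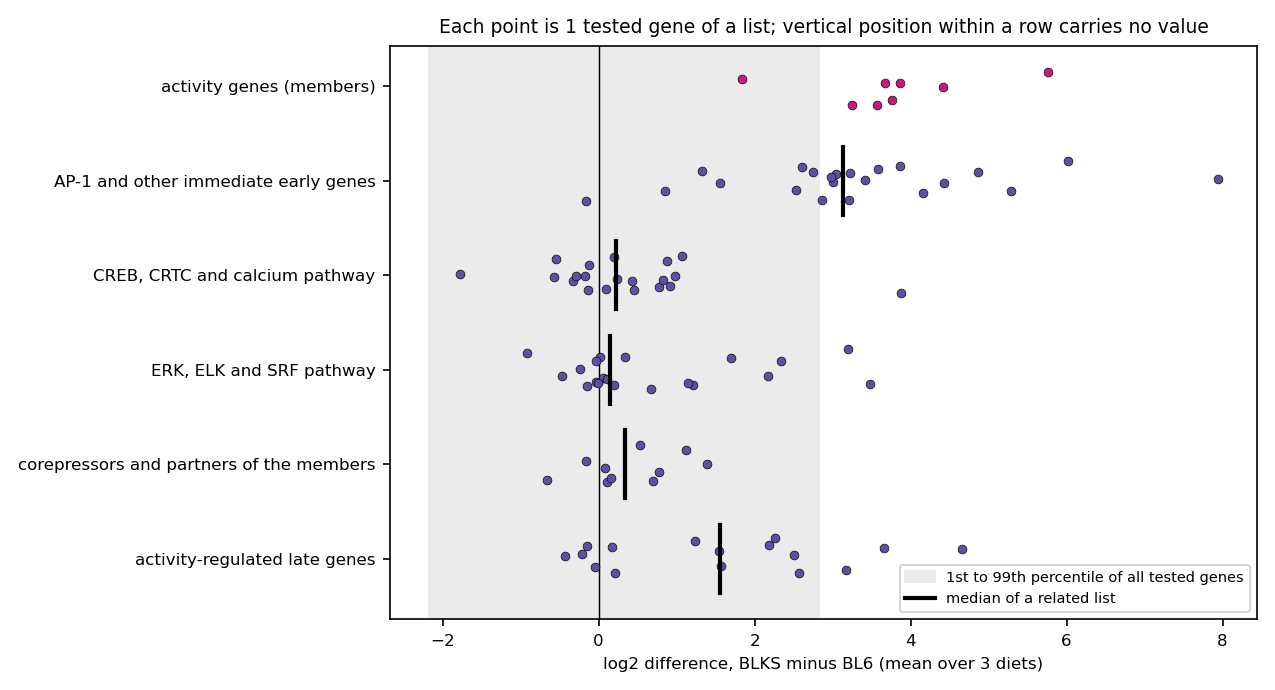
Log2 difference between BLKS and BL6 over the 3 diets (horizontal axis) for each tested gene of the activity genes and of 5 related lists; black bars are the medians of the 5 related lists and the grey band spans the 1st to 99th percentile of all tested genes (-2.17 to 2.83). The AP-1 list has its median at 3.13 and the late genes at 1.56. The lists of CREB, ERK and partner genes have medians of 0.15 to 0.34, with single genes such as Sik1, Srf and Dusp4 beyond the band. The lists were not limited to genes detected in BL6, and the Egr4 point has only a bound on the BL6 side.

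Egr1 was the 1 member that passed between HFD and chow in BL6 islets, and it was lower on HFD. Both groups were on slide 1. Egr1 was 3.44, 2.55, 2.16 and 1.93 in the 4 chow mice and 1.21, 1.39, 0.30 and 0.15 in the 4 HFD mice. No HFD mouse reached the chow range, a separation that 2.21% of genes showed in that direction. Egr1 fell by 1.76 on the log2 scale (SE 0.30, adjusted p = 0.028), a 3.39-fold difference, in a comparison where 0.0435% of all genes were called (10 of 22968). The call was lost for 5 of 8 mice left out in turn: it did not pass without chow mouse 1 (-1.45, adjusted p = 0.1), 2 (-1.75, 0.13) or 3 (-1.88, 0.058) or without HFD mouse 3 (-1.60, 0.089) or 4 (-1.56, 0.13). It also did not pass with only the 8 arrays of the comparison in the fit (adjusted p = 0.42). The SE of 0.30 pools the spread of all 6 groups. The SD of Egr1 was 0.66 in BL6 chow, 0.63 in BL6 HFD and 0.45 in BL6 Pio. In BLKS it was 0.11 on chow, 0.34 on HFD and 0.17 on Pio, so the pooled SE understates the BL6 spread.

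Npas4 was -0.17, -0.57, -0.36 and -1.34 in BL6 on chow and 1.46, 0.40, 0.20 and 1.41 on HFD. All 4 HFD mice lay above all 4 chow mice, which 2.65% of genes showed in that direction. The difference of 1.48 ± 0.29 did not pass (SE; adjusted p = 0.077), and it did without HFD mouse 3 (1.70, adjusted p = 0.039). Ier2 differed by -0.81 ± 0.31 (adjusted p = 0.73), and Egr2, Egr4, Nr4a1, Nr4a2 and Arc had adjusted p = 0.97. Of the related lists, 0 of 22 AP-1 genes, 0 of 20 CREB genes, 0 of 20 ERK genes, 0 of 10 partners and 0 of 16 late genes passed. Fos, the AP-1 subunit whose pattern was most like that of Egr1, differed by -2.19 ± 0.52 with no overlap of the groups (adjusted p = 0.19, unadjusted p = 0.00047). Of the cell type marker scores, only that of macrophages separated HFD from chow in BL6. Macrophage markers were between 1.06 and 1.17 on chow and between 1.45 and 1.95 on HFD, without overlap, and their part was not tested. Acinar markers overlapped between the groups and averaged 3.15 ± 3.16 on chow and 5.04 ± 1.42 on HFD in BL6 (SD, n = 4). With the acinar score as a covariate Egr1 differed by -1.80 (adjusted p = 0.059).

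Npas4 was lower in BL6 islets on HFD with Pio than on HFD alone. The 4 mice with Pio had values of -0.25, -1.39, -1.25 and -0.82, against 1.46, 0.40, 0.20 and 1.41 on HFD alone. The groups did not overlap, as for 1.56% of genes in that direction, and the Pio values lay across the chow range of -1.34 to -0.17. Npas4 fell by 1.80 on the log2 scale (SE 0.29, adjusted p = 0.0087), a 3.47-fold difference, where 0.192% of all genes were called (44 of 22968). It passed without each of the 8 mice in turn, with adjusted p from 0.0033 to 0.041. It did not pass with only these 8 arrays in the fit (adjusted p = 0.68). The SE of 0.29 pools all 6 groups here too. The SD of Npas4 was 0.66 in BL6 HFD and 0.51 in BL6 Pio, against 0.20, 0.26 and 0.22 in BLKS chow, HFD and Pio. The HFD arrays were all on slide 1 and the Pio arrays on slides 2 and 4, so no slide held both groups. With slide as a random block, at an estimated correlation of -0.0123, the difference was -1.80 (adjusted p = 0.0065). That block cannot separate slide from Pio, since no slide held both groups. Macrophage markers averaged 1.61 ± 0.23 on HFD and 1.89 ± 0.56 with Pio, and lymphocyte markers averaged -2.09 ± 2.65 and -0.96 ± 3.06 in the same groups (SD, n = 4). Without the arrays of high lymphocyte score, which left 3 HFD and 2 Pio mice, the Npas4 difference was -1.22 (adjusted p = 0.29), and with that score as a covariate it was -1.79 (adjusted p = 0.013).

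No other member passed between Pio and HFD in BL6. Egr1 was 1.27, 0.89, 1.66 and 0.63 with Pio, within reach of the HFD mice, and differed by 0.35 ± 0.30 (SE; adjusted p = 0.71). Arc was -1.74, -1.84, -1.27 and -1.70 with Pio and -2.12, -1.95, -2.06 and -2.41 on HFD. All Pio mice were above all HFD mice for Arc, as for 1.72% of genes, and the difference of 0.50 ± 0.28 did not pass (adjusted p = 0.56). Among the late genes, 2 of 16 passed, both lower with Pio: Vgf by -1.09 ± 0.21 (adjusted p = 0.031) and Rgs2, an inhibitor of G protein signals, by -1.62 ± 0.33 (adjusted p = 0.048). Of the AP-1 list 0 of 22 passed, with a median of 0.06 beside 0.00 for all genes, and of the CREB, ERK and partner lists 0 of 20, 0 of 20 and 0 of 10.

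Against chow, the BL6 mice on HFD with Pio had lower Egr1, by a value just short of the threshold. The difference was -1.41 ± 0.30 (SE; adjusted p = 0.051), with the 4 Pio mice all below the 4 chow mice (4.95% of genes), and 0.279% of genes were called. It passed without chow mouse 4 (-1.61, adjusted p = 0.042) and without Pio mouse 3 (-1.59, adjusted p = 0.036). Nr4a2 was 0.34, 0.25, 0.05 and 0.58 with Pio against 1.50, 0.75, 0.92 and 0.91 on chow, without overlap (-0.72 ± 0.22, adjusted p = 0.13). On the other Nr4a2 probe these groups did overlap, with a difference of -0.45 ± 0.23 (SE; adjusted p = 0.37 over 32750 probes). Npas4 differed by -0.32 ± 0.29 (adjusted p = 0.65). The BL6 comparisons share chow and HFD mice with each other. This one, too, was split by slide, since the chow arrays were on slide 1.

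**Figure D5:**
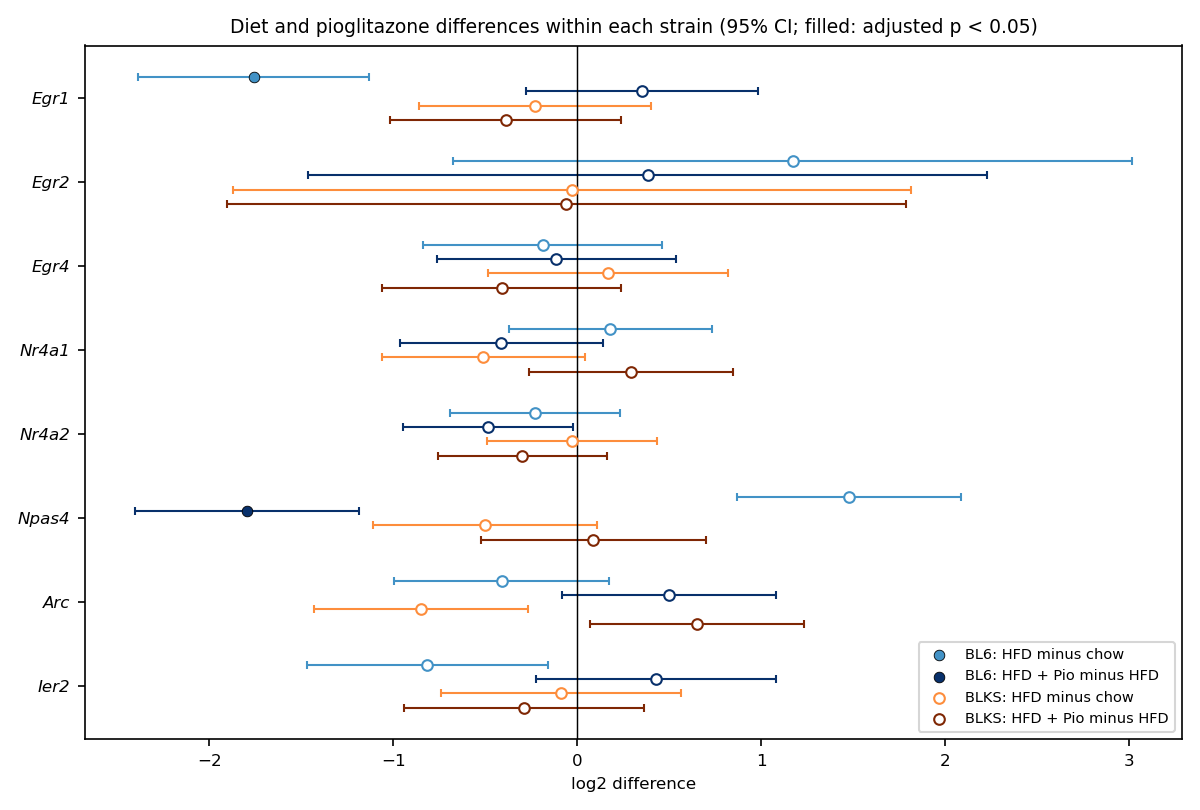
Log2 differences (horizontal axis) for HFD against chow and for HFD with Pio against HFD, within BL6 (blue) and BLKS (orange and brown), for the 8 tested genes with 95% confidence intervals; filled points passed an adjusted p of 0.05. The filled points are Egr1 for HFD in BL6 at -1.76 and Npas4 for Pio in BL6 at -1.80; the intervals of Egr2 are the widest, at ± 0.88 SE.

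In BLKS islets no member passed in a diet comparison, at a level that was high throughout. HFD against chow called 0.0784% of genes in BLKS. The HFD and Pio arrays of this strain shared slide 3, and the chow arrays were on slides 2 and 4. Npas4 was 3.18, 3.64, 3.25 and 3.70 on HFD and 3.86, 3.90, 4.23 and 3.79 on chow, so all HFD mice lay below all chow mice (-0.50 ± 0.29, adjusted p = 0.65). Arc was 0.70, 1.09, 1.88 and 2.03 on HFD and 2.22, 2.30, 2.46 and 2.11 on chow, likewise with no overlap, and differed by -0.85 ± 0.28 (adjusted p = 0.29). Over all genes 3.58% showed such a separation downwards. Arc was the only 1 of the 8 with an unadjusted p under 0.05, at 0.0065.

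With Pio against HFD in BLKS, 1 gene in all (0.00435%) was called and no member. Arc was 2.36, 2.01, 1.39 and 2.54 with Pio, overlapping the HFD mice, and differed by 0.65 ± 0.28 (unadjusted p = 0.03, adjusted p = 1). Ier2 was 0.97, 0.91, 1.13 and 1.06 with Pio and 1.34, 1.14, 1.37 and 1.36 on HFD, with no overlap (1.12% of genes in that direction) and a difference of -0.29 ± 0.31 (adjusted p = 1). Between Pio and chow in BLKS, where 0.0348% of genes were called, Egr1 at -0.62 ± 0.30 (adjusted p = 0.7) and Npas4 at -0.41 ± 0.29 (adjusted p = 0.87) lay lower without overlap, as did 3.74% of genes. Egr1 ran from 5.32 to 5.71 with Pio and from 6.07 to 6.30 on chow.

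The log2 difference of Npas4 between HFD and chow was 1.48 in BL6 and -0.50 in BLKS, neither past the threshold, and the difference of these responses did not pass. The HFD response of Npas4 in BLKS minus that in BL6 was -1.98 ± 0.41 (SE; unadjusted p = 0.00011, adjusted p = 0.14), and its Pio response differed by 1.88 ± 0.41 (unadjusted p = 0.00019, adjusted p = 0.13). For Egr1 the HFD response differed by 1.53 ± 0.43 (adjusted p = 0.27). Over all genes, limma called 0 differences of HFD response (1947 at an unadjusted p under 0.05) and 2 of Pio response (0.00871%). Taking both strains as 1 comparison, HFD against chow gave -0.99 ± 0.21 for Egr1 (adjusted p = 0.13), and Pio against HFD gave -0.85 ± 0.21 for Npas4 (adjusted p = 0.25) and 0.57 ± 0.20 for Arc (adjusted p = 0.54). Called shares there were 0.0348% and 0.0218%.

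Likeness to single members was measured as the Pearson correlation of log2 values over the 24 arrays after subtraction of the 6 group means, and is a description, since arrays share slides and marker RNA. Left out as candidates were the other members and the names of clones, predicted genes, long noncoding transcripts or database identifiers. The genes most like Egr1 included Fos (r = 0.90), the phosphatase gene Dusp1 (0.88), the splicing factor gene Srsf2 (0.84) and Dusp6 (0.83). In the 12 BL6 arrays alone Fos gave 0.91 and in the 12 BLKS arrays 0.80, whereas Dusp1 gave 0.94 and 0.32. For Npas4 they were Srek1ip1 (0.83), the cadherin gene Cdh6 (0.82), Irf3 (0.78), the histone gene Hist3h2a (0.77) and Olfr576 (0.75). In BL6 and in BLKS arrays alone, Irf3 gave 0.92 and 0.25, Cdh6 0.92 and 0.41, and Hist3h2a 0.87 and 0.39. Srek1ip1 gave 0.89 and 0.73, and Olfr576 0.85 and 0.74. For Nr4a1 they were Taf12 (0.82), Alkbh8, Apln and Tpm4 (each 0.76) and Mudeng (0.73). Here the BL6 and BLKS arrays alone gave 0.88 and 0.32 for Apln and 0.795 and 0.67 for Alkbh8. They gave 0.83 and 0.82 for Taf12, 0.78 and 0.80 for Tpm4, and 0.72 and 0.80 for Mudeng.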

How the data were processed

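Per the labels' protocols, islets were freed with collagenase and a neutral protease, and Cy3-labelled cRNA was made from their total RNA. The authors deposited scanner output of Agilent Feature Extraction 10.7.3.1, per the file headers. Its processed intensity, background-subtracted and detrended but not normalized between arrays, was the main measure. The raw spot and local background intensity, also deposited, served for the normexp alternative (offset 50). The value table that the authors deposited holds a linear ratio, in which each processed intensity is divided by the median of its array (as a comparison with the scanner files showed; every column has a median of 1). It served as an alternative, with 0 columns left unmapped to a sample.

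Of 62976 spots per array, 59305 were not controls. Outlier flags led to the loss of 55 probes, and 0 spots were saturated. Replicate spots of a probe were averaged as log2 intensity, and the 75th percentile of the array over probes was subtracted. The brightest kept probe stood for a gene, which left 22968 genes. Gene names and mm9 coordinates are those of the array files. Whether a probe lies in a coding exon or a UTR was not determined here.

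One mean per group was fitted with limma 3.58.1 (lmFit and eBayes, R 4.3.3) to all 24 arrays. It gave 14 contrasts, with Benjamini-Hochberg adjustment over all tested genes and a threshold of 0.05. The fit was tested on simulated data. The simulation gave each gene the same spread in every group, which Egr1 and Npas4 did not have here. All adjusted p-values are from limma. Array number limits the precision. Marker scores are means of the log2 values of the list's tested genes. Of the 9 marker lists, endothelial markers averaged 1.36 in BL6 and 1.47 in BLKS, fibroblast and stellate markers 0.46 and 0.42, Schwann and neuronal markers 0.05 and -0.29, and the adipocyte list had 1 tested gene of 5.

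All 10 members were named. From the related lists, at most 4 genes per list were named where a member passed too, by smallest p. Genes most like Egr1, Npas4 and Nr4a1 were the 5 highest correlations among the candidates left after the exclusions given above. Some genes that these rules name are not reported here. Klf2, Fos, Creb1 and Mapk3 were named outside that rule, after their values were seen. The members and lists were chosen with earlier results of these data known. RefSeq promoter windows come from the GRCm38.p6 assembly. The alternatives were quantile normalization with and without normexp, no filter or a stricter one, the mean of probes, the value table, slide or mouse number as a block, marker scores as covariates, only the groups compared, and left-out mice or arrays.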

Additional observations from a re-analysis of the deposited data

Results flagged for a closer look

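Within the 6 groups of 4 mice, 5 of 48 combinations of gene and group held 1 mouse far from the other 3, measured as its gap to the nearest mouse over the range of the group. Chance gives about 1 in 20. Egr2 was -6.39 in BL6 HFD mouse 3, where it was not well above background, against -3.42 to -3.11 in the other mice of that group. Egr4 was -5.09 in BL6 chow mouse 2 against -6.51 to -6.30, all not well above background. Egr4 was -0.98 in BLKS Pio mouse 3 against -0.61 to -0.54. Nr4a1 was 3.71 in BL6 chow mouse 1, the mouse that was also highest in its group for Egr1 (3.44), Nr4a2 (1.50), Npas4 (-0.17), Arc (-1.11) and Ier2 (-1.30), against 2.66 to 2.81. Ier2 was 1.14 in BLKS HFD mouse 2 against 1.34 to 1.37.

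The log2 difference of Npas4 between HFD and chow had opposite signs in the strains, 1.48 in BL6 and -0.50 in BLKS, with every HFD mouse beyond every chow mouse in each. Neither difference passed in limma (adjusted p = 0.077 and 0.65), nor did the difference between these responses (adjusted p = 0.14).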

How the results depend on the processing

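Over 112 gene-by-comparison results and 2724 alternative values, 0 called values changed sign, 14 calls were lost and 11 gained. Among values that passed in neither fit, 76 changed sign. Of the 792 alternative values for strain differences, 3 were lost, all of Egr2. The 792 include those of Egr4, which entered the test only through BLKS and had to differ there. The number of members that passed for HFD against chow in BL6, 1 in the main setting (Egr1), was 0 with no filter, the acinar score as a covariate, only the groups compared, or without the arrays of high lymphocyte score, and 2 (Egr1 and Npas4) with the filter tightened to detection on all 24 arrays or with the authors' value table. For Pio against HFD in BL6, also 1 (Npas4), it was 0 with only the groups compared and without the arrays of high lymphocyte score. For Pio against chow in BL6 it rose from 0 to 1 (Egr1) under quantile normalization, with or without normexp, the filter on all 24 arrays, the mean of probes, slide as a random block and the mouse number as a replicate block. With each mouse left out in turn these counts ran from 0 to 1, from 1 to 1 and from 0 to 1. Mouse numbers did not pair the groups, since deviations of same-numbered mice correlated at a mean of 0.01, and the replicate block changed no other count by over 1.5 times. Slide as a fixed block could be fitted for 2 contrasts. The all-gene median of the strain difference ran from -0.06 to 0.01 over the scalings. Leaving out the arrays of high lymphocyte score, leaving out slide 4 and the comparison within slide 2 were chosen after seeing the data. Signals near background limit Egr2, Egr3, Egr4 and Nr4a3 in BL6.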
